A study of Danio rerio with 9 samples.

Results

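Primordial germ cells (PGCs) of zebrafish at the shield stage, 6 hours post-fertilization (hpf), were compared with PGCs at the prim-5 stage, 24 hpf, in 6 of the 9 single-cell libraries of the series. A gene entered the comparison when no fewer than 3 of these 6 cells reached an FPKM of 1, and 7549 of the 32266 genes in the table (23.4%) met that rule. FPKM counts the fragments of a gene relative to its length and to all mapped fragments of the cell. At 6 hpf PGCs migrate through the gastrula, while at 24 hpf they lie at the site of the future gonad, and the comparison asks how their transcriptomes differ between these ends of the journey. All embryos were of the AB strain and carried the kop-egfp-nanos3-3′UTR transgene, in which the kop promoter is active in the maternal germ line and the nanos3 3′UTR keeps EGFP in PGCs. Green cells were picked by capillary, at 24 hpf after head, tail and yolk had been cut away and the trunk had been dissociated, and the labels give gonad as the tissue at both stages. The 3 cells of a stage came from 1 embryo, so embryos were not replicated. Levels are shown cell by cell, or as a mean with the SD of the 3 cells of that embryo, and nothing was tested between stages. Because the transgene carries the nanos3 3′UTR, FPKM values of nanos3 may include transgene reads.

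PGCs of zebrafish are set aside by maternally inherited germ plasm, a condensate of RNA and protein that is organised by Bucky ball and holds RNAs such as ddx4 (vasa), nanos3 and dnd1. The cells stay transcriptionally quiet in the early embryo, keep germ plasm RNAs through RNA-binding proteins that shield them from clearance, and migrate along the chemokine Cxcl12a by way of its receptor Cxcr4b. After they reach the gonadal region they divide little for a time, and later enter meiosis or gametogenesis. Somatic cells over the same hours clear maternal RNA, pass through gastrulation and begin to differentiate.

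The summed FPKM of a cell lay between 554895 and 613048. FPKM holds no read counts, so the fragments behind the value of a gene are unknown. By the paper's read totals after quality control, each cell at 24 hpf had more paired reads than any cell at 6 hpf. Of the kept genes, 6239.7 ± 112 reached an FPKM of 1 per cell at 6 hpf, against 5108 ± 547 per cell at 24 hpf (mean ± SD, n = 3 cells from 1 embryo each). The lowest number was that of 24_1, 4485, against 5509 in 24_2 and 5330 in 24_3, so the stages did not overlap. Over all genes of the table the numbers were 8148, 7779 and 7602 at 6 hpf against 5771, 7376 and 6654 at 24 hpf. On that count 24_2 lay close to 6_3. Of the genes with an FPKM of at least 1 in the other 5 cells, 6.54%, 7.72% and 7.48% were below 1 in 6_1, 6_2 and 6_3, and 22.7%, 9.52% and 11.7% in 24_1, 24_2 and 24_3. A value of exactly 0 can therefore come from RNA that was not captured, and it is written as listed at 0. Of the 12 germ cell markers, between 8 and 10 reached an FPKM of 10 in every cell of both stages. Of 25 skeletal muscle markers, 8 did so in 24_1, 12 in 24_2 and 1 in 24_3, against 1 in 6_1 and none in 6_2 and 6_3. The muscle markers summed to an FPKM of 665 in 24_1, 2726 in 24_2 and 50.7 in 24_3, and the FPKM of actc1b, a muscle actin, was 214, 1554 and 4.11 in these cells. Of 20 epidermal and 18 neural markers, between 0 and 2 reached that level in a cell at 6 hpf and between 2 and 4 in a cell at 24 hpf. The part of RNA from other cells in the differences below was not tested, and the median of a gene list in 24_3 alone is given where its sign was opposite or where it moved a median beyond 2-fold by over 1.5 times.

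The difference of a gene is taken as log2 of the mean FPKM plus 1 at 24 hpf minus the same value at 6 hpf, so that a negative difference is lower at 24 hpf. Over the 7549 genes the median difference was -0.02, with quartiles at -1.31 and 1.12. A level at least 2-fold higher at 24 hpf was found for 2058 genes (27.3%) and at least 2-fold lower for 2269 (30.1%). Together these made up 4327 genes (57.3%). All 3 cells at 24 hpf lay above all 3 at 6 hpf for 964 genes (12.8%) and below them for 1275 (16.9%), or 29.7% in either direction. These shares are the background for the counts of members called in each group below. Scaling by median-of-ratios factors moved the median of all genes to -0.32 and the split to 1632 higher and 2672 lower. Differences between groups of genes are therefore best read against the median of all genes. The median-of-ratios factors were taken from genes above 0 in all 6 cells. Of the 2129 genes with an FPKM of at least 1 in all 6 cells, 30.4% were higher and 13.2% lower. Under the same rule 20% of 7770 genes were higher and 19.2% lower at 11 hpf than at 6 hpf, and 25.4% of 6947 genes were higher and 27.5% lower at 24 hpf than at 11 hpf. These comparisons share cells and keep different genes. When a single cell at 24 hpf was set against the mean at 6 hpf, the median of all 7549 genes was -0.97 in 24_1, -0.24 in 24_2 and -0.24 in 24_3. Medians of lists in single cells are best read against these values.

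**Figure D1:**
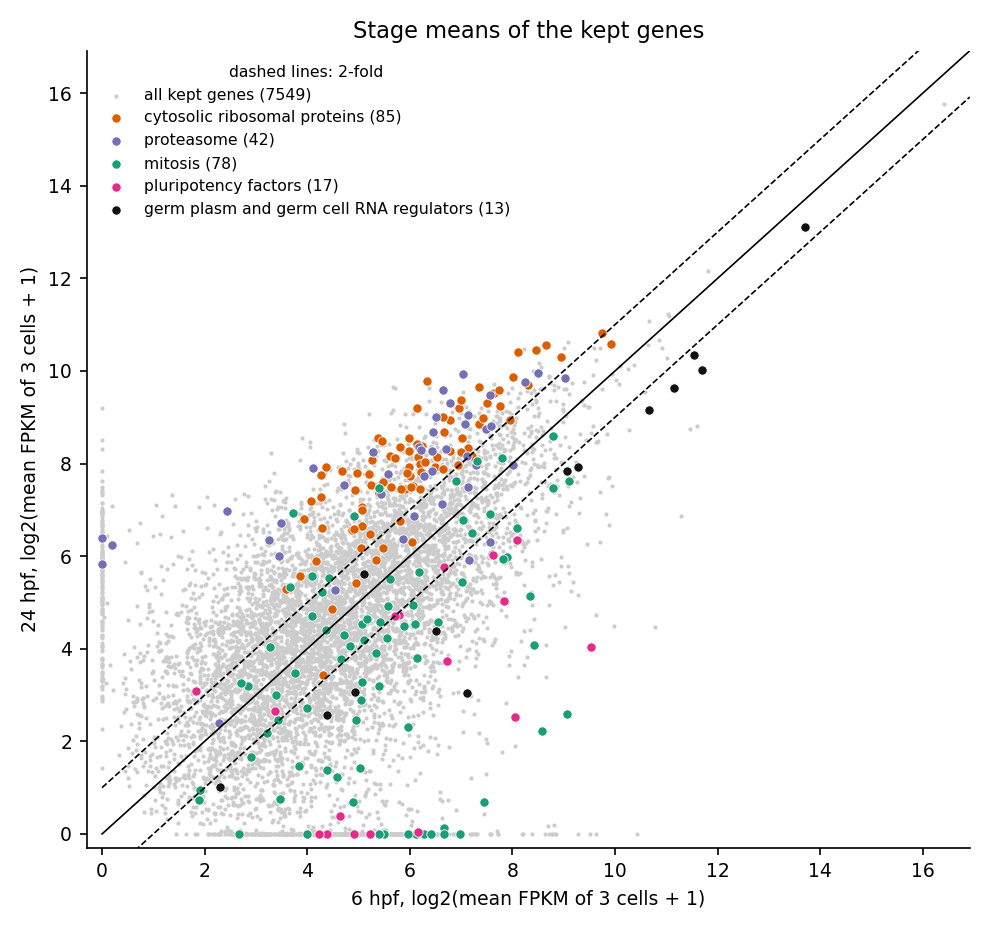
Each point is 1 of 7549 kept genes, with log2 of the mean FPKM plus 1 of 3 cells at 6 hpf on the horizontal axis and at 24 hpf on the vertical axis. The solid line marks equal levels and the dashed lines a 2-fold difference. Ribosomal protein and proteasome genes lie mostly above the upper line, and germ plasm, pluripotency and mitosis genes mostly below the diagonal. Of these genes 4 of 17 for pluripotency and 10 of 78 for mitosis lie at 0 at 24 hpf, and none of the 13 germ plasm genes does.

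The direction varied with the level and with how widely a gene was detected. Among genes whose higher stage mean was above 300 FPKM, 42.8% of 453 were at least 2-fold higher at 24 hpf and 23.8% lower. Among those below 10 FPKM, 12.9% of 1195 were higher and 27.9% lower. An FPKM of at least 1 in all 6 cells was reached by 2129 genes, of which 647 (30.4%) were higher at 24 hpf and 280 (13.2%) lower. The excess of lower genes over the whole set thus lay among genes that some cells lacked. A gene detected at 1 stage alone could pass the filter only through that stage and had to differ, which held for 550 genes through 6 hpf and 156 through 24 hpf. Without them 27.8% of 6843 genes were higher and 25.1% lower. All 3 cells were listed at 0 for 457 genes at 24 hpf and for 144 at 6 hpf.

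The most abundant transcripts differed between the stages. The lists of the 100 genes with the highest mean FPKM at each stage shared 43 genes. Of the top 100 at 6 hpf, 51 were at least 2-fold lower at 24 hpf, and of the top 100 at 24 hpf, 52 were at least 2-fold higher than at 6 hpf. Cytosolic ribosomal proteins made up 2 of the top 100 at 6 hpf and 15 at 24 hpf, and proteasome subunits 1 and 7. The 100 most abundant genes of a cell held 35.1 ± 3.09% of its summed FPKM at 6 hpf and 27.9 ± 3.499% at 24 hpf. The highest value in every cell was that of an entry that the table names only AC024175.4, with 17.96%, 15.3% and 12.5% of the sum at 6 hpf and 11.2%, 9.73% and 6.92% at 24 hpf. Next was nanos3, whose protein represses RNAs to keep PGC fate, with FPKM values of 9153, 20639 and 10426 at 6 hpf against 8559.8, 7573 and 10351 at 24 hpf.

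Germ plasm transcripts were lower at 24 hpf, and nanos3 was still among the 10 most abundant genes there. Of the 13 genes for germ plasm and germ cell RNA regulators, all of which were kept, 0 were at least 2-fold higher and 11 lower, and for 9 the cells of the stages did not overlap. The median difference was -1.5, and it was -2.15, -1.13 and -1.74 in 24_1, 24_2 and 24_3. These genes held 3.34, 5.77 and 3.99% of the summed FPKM of the cells at 6 hpf against 1.95, 2.25 and 2.42% at 24 hpf. All 3 shares at 24 hpf were below all 3 at 6 hpf. A large part of each list sum was nanos3. At 6 hpf it had 9153, 20639 and 10426 of 19125, 33899 and 22141. At 24 hpf it had 8559.8, 7573 and 10351 of 11957, 13325 and 13955. The ranges of nanos3 overlapped between the stages, and its values may include transgene reads.

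The FPKM of ddx4 (ENSDARG00000014373), the Vasa RNA helicase and classical germ line marker, was 603, 569 and 435 at 6 hpf against 278, 245 and 157 at 24 hpf. The difference was -1.24. Levels of tdrd7a, which encodes a Tudor protein of germ granules, were 557, 797 and 502 at 6 hpf against 241, 198 and 287 at 24 hpf, with a difference of -1.35. The germ plasm component granulito (gra) had 1312, 1942 and 1619.8 at 6 hpf against 507, 792 and 401 at 24 hpf, and its difference was -1.52. No cell at 24 hpf reached the lowest cell at 6 hpf. For dnd1, whose protein protects germ cell RNAs from microRNAs, the FPKM was 1729.7, 4067 and 3161 at 6 hpf against 671, 1534 and 1678 at 24 hpf. Its difference of -1.21 was -0.92 without 6_2 and -0.89 without 24_1, both less than 2-fold. The linker histone gene of the oocyte and early germ line, h1m, had 2177, 2479 and 2114 at 6 hpf against 1157, 561 and 674 at 24 hpf and a difference of -1.5. Levels of ca15b, a carbonic anhydrase whose RNA localises to germ plasm, were even at 6 hpf, with 3361, 3150.3 and 3427, and uneven at 24 hpf, with 495, 2333 and 280.4. The difference of -1.68 therefore became -3.09 without 24_2.

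Other members of the group were scarcer. The RNA of rgs14a, a regulator of G protein signalling that localises to germ plasm, had an FPKM of 119.5, 139 and 154 at 6 hpf, and at 24 hpf only 24_2 held any, 21.8. The germ plasm organiser buc had 44.4, 81.3 and 145 at 6 hpf against 37.6, 0 and 21.6 at 24 hpf, and again the ranges did not overlap. Levels of igf2bp3, an RNA-binding protein, were 11.5, 17.2 and 59.9 at 6 hpf against 5.71, 6.86 and 9.47 at 24 hpf, and its difference of -1.87 was -0.88 without 6_3. Only dazl, which promotes translation of germ cell RNAs, and nanos3 were within 2-fold. The FPKM of dazl was 36.4, 4.96 and 59.5 at 6 hpf against 5.17, 45.9 and 93.3 at 24 hpf, so both stages held a cell with little and cells with more, and the difference of 0.50 became 1.18 without 6_3 and 1.03 without 24_1. For nanos3 the difference was -0.60, and the lowest value at 6 hpf lay within the range at 24 hpf.

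**Figure D2:**
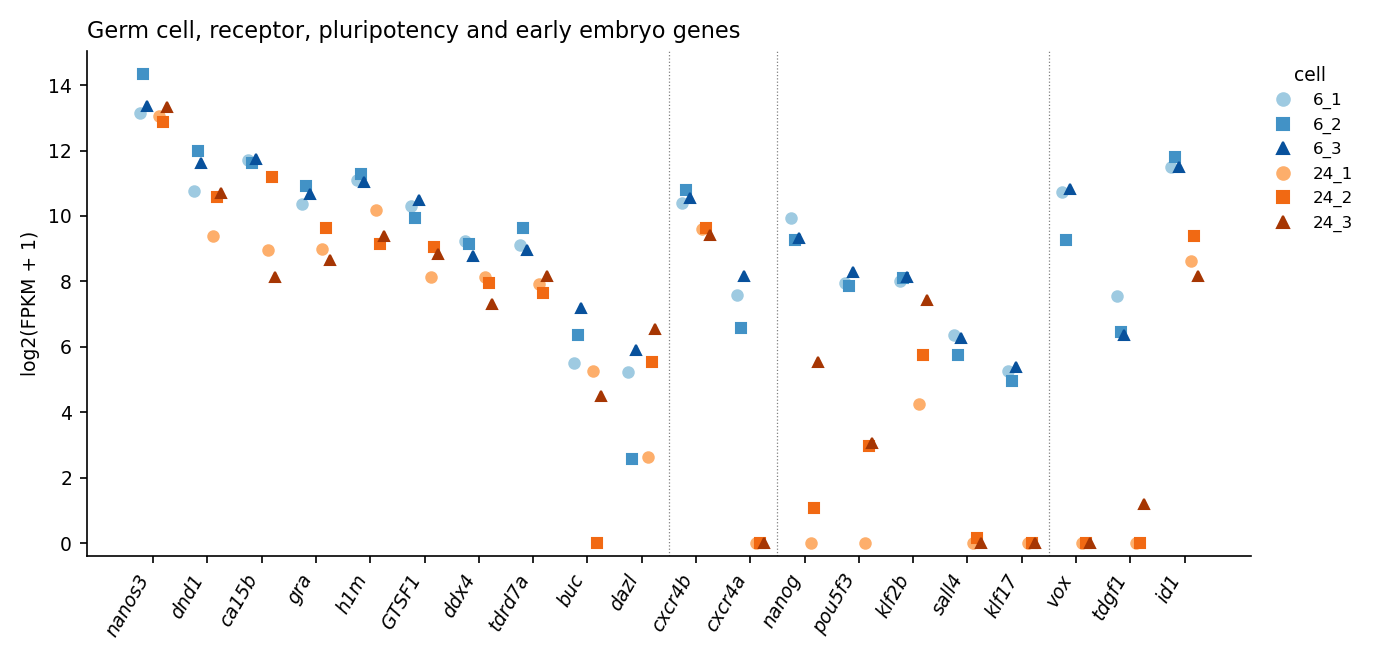
Each point is 1 cell, with log2(FPKM + 1) on the vertical axis, cells at 6 hpf in blue on the left of each gene and cells at 24 hpf in orange on the right. From left to right the dotted lines separate germ plasm and Piwi pathway genes, chemokine receptors, pluripotency factors, and genes of the early embryo. Of the genes shown, the stages overlap for nanos3 and dazl alone, and cxcr4a, klf17 and vox are listed at 0 in every cell at 24 hpf.

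The Piwi and Tudor pathway, which makes small RNAs against transposons in the germ line, was mixed. Of the 21 genes in the list 15 were kept, of which 6 were at least 2-fold higher at 24 hpf and 5 lower, with a median difference of 0.47. That median was -0.30 in 24_3 alone, -0.45 without 24_2 and -0.12 on the mean of the log values, so the list as a whole had no stable direction. As a share of summed FPKM the list was lower, with 0.374, 0.343 and 0.422% at 6 hpf against 0.125, 0.174 and 0.199% at 24 hpf. Most of that sum was GTSF1 and tdrd7a, at 1267 and 557 of 2140 in 6_1 and at 534 and 198 of 1030 in 24_2. The lower share thus rested mainly on these genes, and tdrd7a also belongs to the germ plasm list. For GTSF1, whose mouse counterpart works with Piwi proteins in silencing, the FPKM was 1267, 978 and 1442 at 6 hpf against 278, 534 and 457 at 24 hpf. The ranges of GTSF1 did not overlap, and the difference was -1.54. The gene asz1, which in mice encodes a germ granule protein at mitochondria, had 141, 125 and 241 at 6 hpf against 13, 0 and 78.2 at 24 hpf, and its difference of -2.44 was -4.51 without 24_3. In contrast henmt1, the methyltransferase that protects the ends of Piwi-bound RNAs, was listed at 0 in 6_1 and 6_2. Its FPKM was 0, 0 and 2.98 at 6 hpf against 85.4, 23.2 and 149.8 at 24 hpf, the only member that was higher without overlap, with a difference of 5.45. The Piwi gene piwil1 itself was low, with 0, 2.97 and 12.7 at 6 hpf against 30.2, 0 and 14.6 at 24 hpf, and the stages overlapped. Another member, pld6, which is involved in making these small RNAs at mitochondria, had 34.7, 0 and 0 at 6 hpf against 64.1, 87.9 and 0 at 24 hpf, and its direction was opposite in 24_3 alone.

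Among genes for PGC guidance, those given here for the chemokine axis were lower at 24 hpf. The receptor gene cxcr4b (ENSDARG00000041959), which PGCs need to find their way, had an FPKM of 1336, 1793 and 1490.1 at 6 hpf against 777, 787 and 677 at 24 hpf. The ranges did not overlap, but the difference of -1.04 was close to 2-fold and became -0.92 without 6_2 and -0.98 without 24_3. Its paralog cxcr4a, a receptor better known from mesendoderm and endothelium, was at 191, 94.9 and 289 at 6 hpf and listed at 0 in all 3 cells at 24 hpf. The ligand gene cxcl12a, which somatic cells along the route express, was at 91.5, 96.1 and 51.1 at 6 hpf and likewise listed at 0 at 24 hpf. Both cxcr4a and cxcl12a passed the filter through 6 hpf alone, so they could only be lower. Of the 24 guidance and adhesion genes in the list 11 were kept, with 1 higher and 4 lower and a median of -0.62, which was -0.20 in 24_3 alone. The member that was higher was jupa, a plakoglobin of cell junctions, at 31.8, 13 and 1.95 at 6 hpf against 64.1, 66 and 115 at 24 hpf, and its difference of 2.32 was 3.28 without 6_1. The beta-catenin gene ctnnb1, which serves both junctions and Wnt signalling, had 33.9, 83.1 and 39.1 at 6 hpf against 0, 45 and 17.7 at 24 hpf, and these values overlapped. The adhesion molecule epcam had 117, 154 and 86.4 at 6 hpf against 71.5, 60.6 and 104 at 24 hpf, a difference of -0.59.

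The actin cytoskeleton held a larger share of RNA at 24 hpf, although its genes did not all differ in the same direction. Its 37 kept genes (of 52) included 14 that were higher and 6 that were lower, with no overlap for 13 and 4. The share of summed FPKM was 0.681, 0.758 and 0.868% at 6 hpf against 1.3, 1.1 and 1.12% at 24 hpf. The median difference was 0.40, but 0.09 with median-of-ratios scaling and -0.05 on the mean of the log values. The cytoplasmic actin gene actb1 (ENSDARG00000037746) had cells at 248, 310.5 and 449 at 6 hpf against 1294, 752 and 1023 at 24 hpf. The difference of 1.6 matters for any value that is divided by actb1, since it exceeds 2-fold. The Arp2/3 subunit arpc3, part of the complex that branches actin filaments, was at 169.5, 98.3 and 66.2 at 6 hpf against 842, 429 and 387 at 24 hpf, a difference of 2.3. Thymosin beta (tmsb4x), which sequesters actin monomers, was at 11.5, 76.2 and 42 at 6 hpf against 285, 227 and 104 at 24 hpf.

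Other genes of the same group were lower. The small GTPase gene rac1a, which drives protrusion, had 364, 392 and 392 at 6 hpf against 171, 146 and 167 at 24 hpf, and its difference of -1.24 came with little spread in either stage. The capping protein gene capza1a was at 112, 154 and 96.6 at 6 hpf against 0, 27.3 and 28.4 at 24 hpf. The nonmuscle myosin heavy chain gene myh9a was at 7.8, 19.8 and 12.8 at 6 hpf and listed at 0 in every cell at 24 hpf. In 24_3, where 1 of the 25 muscle markers reached an FPKM of 10, the median of the actin genes was 0.34, and arpc3 was at 387. In the same cell 4 neural and 3 epidermal markers reached that level. The part of RNA from other cells in the actin genes was not tested.

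Pluripotency factors were lower at 24 hpf. Of 17 kept genes for pluripotency and germline specification (of 28), 1 was higher and 13 were lower, and for 12 the stages did not overlap downwards. The median difference was -3.003, and -1.72 without the 4 genes listed at 0 at 24 hpf, and 6 of the 17 had passed the filter through 1 stage alone. The list held 0.392, 0.378 and 0.3996% of the summed FPKM at 6 hpf against 0.0198, 0.0483 and 0.105% at 24 hpf. The homeobox gene nanog, which activates the zygotic genome with Pou5f3 and SoxB1 proteins, had 973, 618 and 636 at 6 hpf against 0, 1.13 and 45.2 at 24 hpf, so 24_3 held nearly all of the RNA found at 24 hpf. Levels of pou5f3 were 249, 231 and 312 at 6 hpf against 0, 6.88 and 7.39 at 24 hpf, with a difference of -5.52. The zinc finger gene sall4, known from stem cells and germ cells in mice, was at 81, 52.6 and 76.9 at 6 hpf against 0, 0.108 and 0 at 24 hpf. Its gap was among the 10 widest downwards of genes with some RNA in at least 1 cell at 24 hpf. At 6 hpf klf17, a zinc finger gene of early epidermis and hatching gland, was at 37.8, 29.97 and 41.2 and vrtn at 33.3, 17.5 and 36.3, and both were listed at 0 in every cell at 24 hpf.

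Other members of the list kept part of their level. The Krüppel-like gene klf2b was at 256, 272 and 281 at 6 hpf against 18.3, 53 and 172 at 24 hpf, and its difference of -1.72 was -2.88 without 24_3. The Myc homolog mych was at 91.2, 181 and 316 at 6 hpf against 0.327, 28.8 and 163 at 24 hpf, and its difference of -1.6 was -3.66 without 24_3. In both genes 24_3 was the cell with the highest level at 24 hpf. The RNA-binding protein gene lin28a, which blocks let-7 microRNA in many animals, was at 51, 50.6 and 60.6 at 6 hpf against 22.9, 12.3 and 41.2 at 24 hpf, lower without overlap, with a difference of -1.06 that was -0.74 without 24_2. Of the SoxB1 genes, sox3 was at 192, 354 and 133 at 6 hpf against 0, 95.2 and 0 at 24 hpf and sox19b at 136, 85.1 and 80.02 at 6 hpf against 22.9, 53.2 and 83.6 at 24 hpf, while sox2 was listed at 0 in all 6 cells. The low-level sox19a, at 4.1, 3.56 and 0 at 6 hpf against 0, 4.33 and 18.1 at 24 hpf, was the 1 member at least 2-fold higher, and its difference of 1.25 was -0.17 without 24_3.

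Factors of the germ layers and axes followed. Of the 41 genes in this list 11 were kept, none of them at least 2-fold higher and 9 lower, 4 of which had passed the filter through 6 hpf alone and were listed at 0 in every cell at 24 hpf. The median was -4.54, and -1.34 without these 4. The homeobox gene vox, a ventralising repressor, was at 1712, 613 and 1808 at 6 hpf and listed at 0 at 24 hpf, the widest gap of any such gene. The Nodal co-receptor gene tdgf1 (one-eyed pinhead) was at 186, 87.5 and 81.9 at 6 hpf against 0, 0 and 1.3 at 24 hpf. The T-box gene tbx16, which patterns mesoderm, was at 343, 189 and 293 at 6 hpf against 0, 28.2 and 0.0466 at 24 hpf. In contrast ved, a further ventral repressor, was at 875, 293 and 349.6 at 6 hpf against 133, 653 and 945 at 24 hpf, so the ranges of the stages overlapped widely. Of 48 Hox genes in the table only hoxc11b was kept, at 14.6, 0 and 4.3 at 6 hpf against 0, 6.44 and 0 at 24 hpf. In 24_2, 6 Hox genes reached an FPKM of 10, against 0 or 1 in each other cell, and the list summed to 379 there.

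Among signalling genes, several targets and feedback inhibitors were lower. The list of TGF-beta, Wnt, FGF, Notch and retinoid genes had 28 kept members (of 99), with 4 higher and 19 lower and a median of -1.43 that was -3.01 in 24_3 alone. The BMP target id1, an inhibitor of differentiation factors, was among the 10 most abundant genes at 6 hpf, with 2892, 3583 and 2864 at 6 hpf against 397, 667 and 285 at 24 hpf, and its difference was -2.79. Its relative id3 was at 89.3, 87.5 and 89.97 at 6 hpf against 9.65, 0 and 0 at 24 hpf, a difference of -4.42. At 6 hpf dusp6, a feedback inhibitor of FGF signalling, was at 23.3, 26.5 and 7.86 and smad7, an inhibitor of TGF-beta signalling, at 8.39, 12.6 and 42.6, and both were listed at 0 in the cells at 24 hpf. The FGF receptor gene fgfr1b was at 11, 17.7 and 11.2 and also listed at 0 there. These 3 genes passed the filter through 6 hpf alone, so they could only be lower. Without them the median of the list was -1.29. The retinoic acid hydroxylase gene cyp26a1 was at 56.9, 72.1 and 100.1 at 6 hpf against 0, 0 and 24.1 at 24 hpf, with RNA in 24_3 alone at the later stage.

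Oocyte genes, whose RNA the mother supplies to the egg, were lower at 24 hpf. Of the 25 genes 12, 12 and 6 were listed at 0 in 24_1, 24_2 and 24_3. In 6_1, 6_2 and 6_3 these numbers were 3, 2 and 4. Values of 0 were also more frequent at 24 hpf over all 7549 kept genes. There 2804, 1824 and 2032 were listed at 0 in 24_1, 24_2 and 24_3, against 1038, 1244 and 1220 in 6_1, 6_2 and 6_3. Of 22 kept oocyte genes (of 25) 1 was higher and 12 were lower, with no overlap for 10, and the median was -1.41. Without the 3 genes listed at 0 in every cell at 24 hpf it was -0.81, and in 24_3 alone -0.73, both within 2-fold. The list held 1.37, 1.41 and 1.39% of the summed FPKM at 6 hpf against 0.384, 0.662 and 0.369% at 24 hpf. Its abundant members ca15b and h1m also belong to the germ plasm list, so the 2 shares are not separate. These genes were at 3361 and 2177 of a list sum of 7822 in 6_1, and at 2333 and 561 of 3919 in 24_2. The gene btg4, which in mice recruits the deadenylase that clears maternal RNA, was at 726, 763 and 364 at 6 hpf and listed at 0 in every cell at 24 hpf. So was zar1l, an oocyte RNA regulator, at 79.5, 59.4 and 62.1 at 6 hpf, and bmp15, an oocyte growth factor, at 52.8, 96.4 and 6.84. In contrast org, named for its oogenesis-related RNA, was at 495, 822 and 588 at 6 hpf against 366, 471 and 355 at 24 hpf, a difference of -0.68 with no overlap. Of the 10 kept zona pellucida genes, which encode egg coat proteins, 3 were at least 2-fold lower and 7 within 2-fold, with a median of -0.51. The oocyte kinase gene wee2 was at 133, 112 and 203 at 6 hpf against 0, 107 and 24.4 at 24 hpf, and its difference of -1.74 was -3.51 without 24_2.

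The machinery that removes and translates maternal RNA was mixed. Of 42 kept genes for deadenylation and maternal RNA control (of 51), 7 were higher and 15 lower, with a median of -0.11, and 0.05 without genes listed at 0 at 24 hpf. The antiproliferative gene tob1a, which links RNA to the deadenylase, was at 26.3, 95.6 and 81.7 at 6 hpf and listed at 0 at 24 hpf. The 2 LSm14 relatives went opposite ways, since lsm14b was at 167, 221 and 357 at 6 hpf against 0, 0 and 43.1 at 24 hpf and lsm14ab at 0, 1.03 and 5.23 at 6 hpf against 25.2, 24.1 and 19.1 at 24 hpf. The decay factor zfp36l2, which binds AU-rich elements, was at 39.8, 54 and 26.1 at 6 hpf against 0, 23.5 and 0 at 24 hpf, with RNA at 24 hpf in 24_2 alone. The Y-box gene ybx1, whose protein packages maternal RNA, was at 347, 267 and 418 at 6 hpf against 189.99, 79.5 and 110.2 at 24 hpf, a difference of -1.44. The embryonic poly(A)-binding gene pabpn1l was at 651, 679 and 728 at 6 hpf against 309.5, 567 and 213 at 24 hpf, and its difference of -0.92 stayed within 2-fold.

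Among cell cycle genes, most cyclins and most genes of mitosis were lower at 24 hpf. Of the inhibitors of cyclin-dependent kinases given here, cdkn1bb and cdkn1ca were higher, while the ranges of cdkn1a overlapped. Of the 34 kept genes for cyclins, Cdks and regulators (of 47), 4 were higher and 18 lower, with no overlap for 3 and 16. The median was -1.33, and -2.24, -1.75 and -1.89 in the 3 cells at 24 hpf, and -0.94 without the 4 genes listed at 0 there. Of 11 kept cyclins, which activate the kinases, 0 were higher and 8 lower. The early embryonic cyclin gene ccna1 was at 442, 371 and 565 at 6 hpf and listed at 0 at 24 hpf, whereas ccna2 was at 439, 463 and 445 at 6 hpf against 115, 209 and 177 at 24 hpf, a difference of -1.42. The mitotic cyclin gene ccnb1 was at 1235, 1035 and 747 at 6 hpf against 0, 33.9 and 30.4 at 24 hpf, and ccnb2 at 927, 440.3 and 743 at 6 hpf against 51.8, 37.1 and 139 at 24 hpf, with differences of -5.49 and -3.19. The cyclin genes of earlier phases were also lower, with ccne1, which opens DNA replication, at 172, 225 and 139 at 6 hpf against 0, 8.87 and 0.605 at 24 hpf and ccnd1, which answers growth signals, at 155, 136 and 187 at 6 hpf against 0.061, 0 and 19.3 at 24 hpf. Geminin (gmnn), which keeps DNA from being copied again, was at 472, 318 and 460.2 at 6 hpf and listed at 0 at 24 hpf.

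Most of the kinases themselves did not follow the cyclins. Of 4 kept cyclin-dependent kinase genes, 0 were higher, 1 was lower and 3 were within 2-fold. For 1 of the 4 all cells at 24 hpf lay below those at 6 hpf. Levels of cdk1 were 184, 194 and 313 at 6 hpf against 186, 376 and 32.1 at 24 hpf and those of cdk2 were 160.1, 119 and 115 at 6 hpf against 94.3, 125 and 180.5 at 24 hpf, and both ranges overlapped, with differences of -0.22 and 0.02. The kinase inhibitor gene cdkn1bb, a p27 homolog that holds cells out of the cycle, was at 36.8, 32.8 and 55.4 at 6 hpf against 267, 98.2 and 201 at 24 hpf, a difference of 2.15 with no overlap. The p57 homolog cdkn1ca was at 90.2, 199 and 40.4 at 6 hpf against 245, 598 and 667 at 24 hpf, and its difference of 2.19 was 2.93 without 6_2. The p21 gene cdkn1a was at 11.9, 17 and 10.7 at 6 hpf against 0, 0 and 69.4 at 24 hpf, so RNA at 24 hpf was found in 24_3 alone.

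Of 78 kept mitosis genes (of 97), 6 were higher and 45 lower, with no overlap for 5 and 33. The median was -1.32, and -1.07 without the 10 genes listed at 0 at 24 hpf, which could only be lower. In all, 11 of the 78 had passed the filter through 1 stage alone. Per cell the medians were -2.78, -1.22 and -3.05, so the difference was widest in 24_1 and 24_3. The list held 1.34, 1.27 and 1.31% of the summed FPKM at 6 hpf against 0.546, 0.583 and 0.569% at 24 hpf. Among the 10 genes listed at 0 in every cell at 24 hpf was prc1a, which bundles spindle midzone microtubules, at 53.1, 165 and 155 at 6 hpf. Also listed at 0 there was cdc20, the activator of the anaphase-promoting complex, at 124, 36 and 142 at 6 hpf. The spindle kinase gene aurka was at 279.98, 401 and 463 at 6 hpf against 10.9, 0 and 0 at 24 hpf, and plk1, a kinase of mitotic entry, at 297, 416 and 309.8 at 6 hpf against 0, 0 and 47.4 at 24 hpf. The chromosomal passenger gene cdca8 was at 781, 413 and 410.3 at 6 hpf against 0, 0 and 15.2 at 24 hpf, and the spindle assembly factor gene tpx2 at 239, 247 and 485 at 6 hpf against 14.5, 50.1 and 38.3 at 24 hpf.

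Kinetochore genes took both directions. The kinetochore genes spc24 and nuf2, which anchor microtubules, were at 25.7, 111 and 114 and at 79.6, 80.9 and 69.7 at 6 hpf. Both were listed at 0 at 24 hpf, so they could only be lower. The centromere gene cenpl was at 153, 159.8 and 209 at 6 hpf against 0, 0 and 1.83 at 24 hpf, and the motor gene kifc1 at 101, 110.3 and 89.2 at 6 hpf against 0, 0 and 0.268 at 24 hpf. Both were among the widest gaps downwards of genes with some RNA in a cell at 24 hpf. Of 8 kept centromere protein genes 5 were lower and 2 higher, the latter cenph at 36.8, 0 and 0 at 6 hpf against 183, 121 and 62 at 24 hpf and cenpi at 3.29, 8.7 and 22.8 at 6 hpf against 34.3, 50.1 and 34.4 at 24 hpf. The checkpoint gene bub3 was higher, at 22.5, 21.3 and 43.2 at 6 hpf against 162, 136 and 48.6 at 24 hpf, a difference of 1.96, and cdc26, a subunit of the anaphase-promoting complex, was at 66.8, 56.3 and 0 at 6 hpf against 187, 150.4 and 188 at 24 hpf. The abundant ubiquitin-conjugating gene ube2c (ENSDARG00000035770), which works with that complex, was at 544, 464 and 321 at 6 hpf against 464, 446 and 248 at 24 hpf, and the separase inhibitor gene pttg1 at 449, 455 and 428 at 6 hpf against 173, 145 and 215 at 24 hpf, a difference of -1.32.

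**Figure D3:**
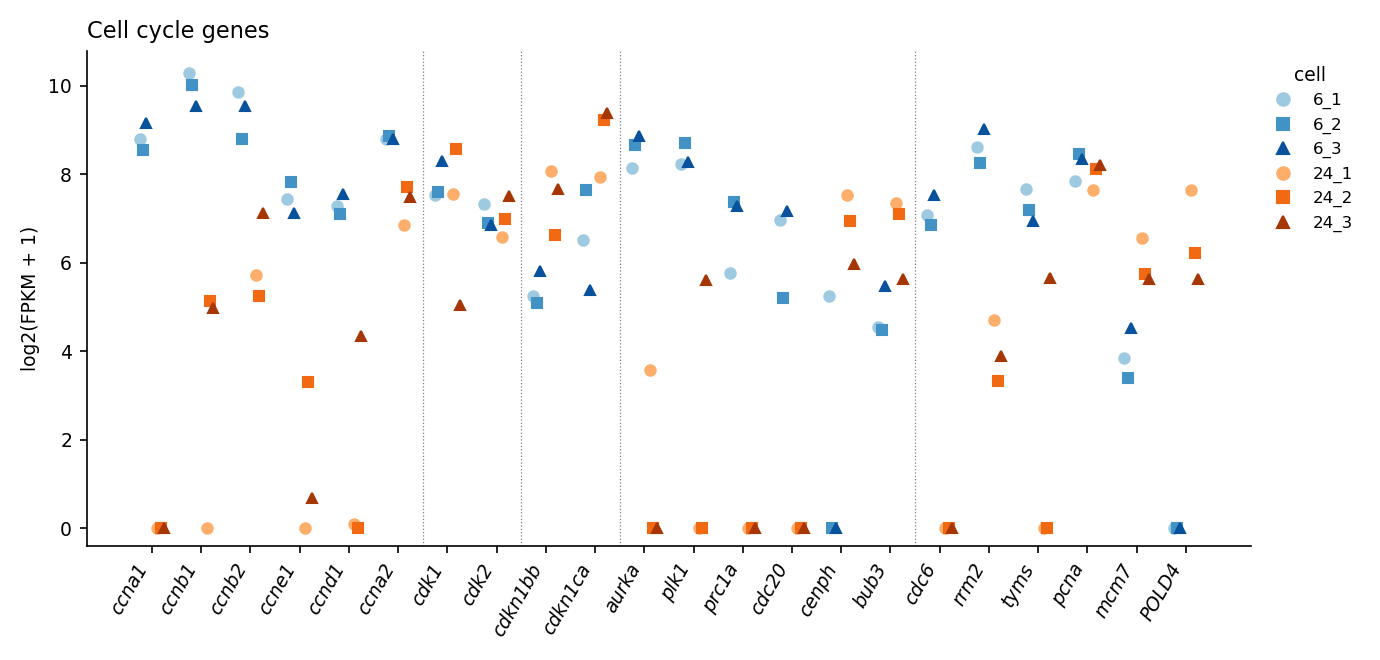
Each point is 1 cell, with log2(FPKM + 1) on the vertical axis, cells at 6 hpf in blue and cells at 24 hpf in orange. From left to right the dotted lines separate cyclins, cyclin-dependent kinases, their inhibitors, mitosis genes and replication genes. Cyclin genes lie lower at 24 hpf, ccna1, prc1a, cdc20 and cdc6 at 0, while cdkn1bb, bub3 and mcm7 lie higher and cdk1, cdk2 and pcna overlap.

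DNA replication genes took both directions. Of 52 kept genes (of 61), 10 were higher and 22 lower, and the median of -0.24 lay near that of all genes and was 0.08 in 24_3 alone. All 5 genes that supply deoxynucleotides were lower, with a median of -3.83. The ribonucleotide reductase gene rrm2 (ENSDARG00000020711) was at 391, 302 and 515 at 6 hpf against 25, 9.01 and 13.9 at 24 hpf, a difference of -4.57. Thymidylate synthase (tyms) was at 200.2, 144 and 122 at 6 hpf against 0, 0 and 49.3 at 24 hpf, and thymidine kinase (tk1) at 17.8, 57.6 and 59.97 at 6 hpf and listed at 0 at 24 hpf. The origin licensing gene cdc6 was at 133, 114 and 184 at 6 hpf and also listed at 0. The sliding clamp gene pcna, in contrast, was at 227, 352 and 323 at 6 hpf against 198, 278 and 292 at 24 hpf, with overlapping ranges. Of 9 kept genes of the MCM helicase 2 were higher and 4 lower, with a median of -0.07. Its subunit gene mcm7, 1 of the higher genes, was at 13.4, 9.49 and 22 at 6 hpf against 93.3, 52.2 and 48.4 at 24 hpf, a difference of 2.04, and POLD4, a small subunit of DNA polymerase delta, was listed at 0 at 6 hpf but was at 199.8, 73.8 and 48.7 at 24 hpf.

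DNA repair genes were few and uneven between cells. Of 31 kept genes (of 60), 8 were higher (25.8%) and 9 lower (29.0%), near the shares of all genes. The median was 0.13, and -1.87 in 24_3 alone. The cohesin subunit gene rad21a was at 43.4, 49.7 and 80.1 at 6 hpf against 123, 156 and 232 at 24 hpf, a difference of 1.54 with no overlap. The clamp gene of the damage checkpoint rad9a was at 13.1, 41.8 and 12.8 at 6 hpf against 0.31, 0 and 5.46 at 24 hpf, lower without overlap.

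Several chromatin genes that maintain repressive marks were lower. Of 73 kept genes (of 97), 14 were higher and 28 lower, with a median of -0.23 that was 0.09 without the 6 genes listed at 0 at 24 hpf. The maintenance DNA methyltransferase gene dnmt1 was at 18, 33.9 and 19.1 and its partner uhrf1 at 21.3, 41 and 13.9 at 6 hpf, and both were listed at 0 in every cell at 24 hpf. Both passed the filter through 6 hpf alone, so they could only be lower. The other 4 kept genes of that family were within 2-fold, and the median of all 6 was 0.19. Of 12 kept Polycomb genes, which silence developmental genes, 8 were lower and 1 higher. Among the lower ones 2, of which bmi1b is 1, were listed at 0 at 24 hpf and could only be lower. The Polycomb gene bmi1b was at 92.8, 117 and 22.2 at 6 hpf and listed at 0 at 24 hpf, and its copy bmi1a was at 113, 72.3 and 41.4 at 6 hpf against 0, 0 and 15.7 at 24 hpf. Of the 5 heterochromatin protein genes 4 were lower, among them cbx5 at 244, 120.3 and 117 at 6 hpf against 20.3, 28.1 and 28 at 24 hpf, a difference of -2.61, and cbx3a at 1095, 943 and 919.6 at 6 hpf against 103, 43.1 and 402 at 24 hpf, a difference of -2.42 that was -3.73 without 24_3. In contrast tdg.2, a DNA glycosylase that takes part in active demethylation, was at 2.09, 0 and 0 at 6 hpf against 27.9, 54.5 and 66.2 at 24 hpf, a difference of 4.9 with no overlap. The deacetylase gene hdac1 was at 273, 160.4 and 200.04 at 6 hpf against 244, 261 and 539 at 24 hpf, with overlapping ranges.

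Among variant and linker histones and HMG proteins, single genes differed widely in both directions. Of 30 kept genes (of 34), 8 were higher and 10 lower, with a median of -0.03. The linker histone genes h1fx and h1f0 were listed at 0 in every cell at 6 hpf and were at 20.6, 47.1 and 33.3 and at 2.4, 80.6 and 59.7 at 24 hpf, where h1m was lower. The macroH2A gene h2afy2, a variant of silent chromatin, was likewise listed at 0 at 6 hpf and was at 223, 103 and 153 at 24 hpf. The H3.3 gene h3f3c was at 33.7, 8.6 and 107 at 6 hpf against 753, 352 and 597 at 24 hpf, a difference of 3.48, whereas an H3.3 gene listed as h3f3b.1 (ENSDARG00000020504) was at 3125, 2508 and 2816 at 6 hpf against 513, 309 and 469 at 24 hpf, a difference of -2.71. Copies of the H3.3 genes are nearly identical in sequence, so how fragments were divided between them is uncertain. The damage-marking variant h2afx was at 177, 129.9 and 60.7 at 6 hpf against 0, 29.8 and 2.54 at 24 hpf. The abundant hmgb2a and h2afvb overlapped between stages, the former at 1724, 1682 and 1415 at 6 hpf against 2206, 1403 and 945 at 24 hpf and the latter at 1109.98, 1195 and 1648 at 6 hpf against 968, 992 and 1415 at 24 hpf.

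Genes for making and degrading protein were higher at 24 hpf. Of 85 kept cytosolic ribosomal protein genes (of 86), 75 were at least 2-fold higher and 0 lower, against 27.3% and 30.1% of all genes, and for 65 the stages did not overlap. The median was 1.85, 1.51 with median-of-ratios scaling, and 2.17, 1.81 and 1.53 in 24_1, 24_2 and 24_3. Both subunits took part, with 31 of 36 small subunit genes and 44 of 49 large subunit genes higher and medians of 1.82 and 1.85. The list held 1.6, 1.66 and 1.72% of the summed FPKM at 6 hpf against 6.33, 5.38 and 4.38% at 24 hpf. The small subunit gene rps2 was at 52.3, 59.7 and 126 at 6 hpf against 1153, 790.4 and 701 at 24 hpf, a difference of 3.46, and rps3 at 29.8, 16.4 and 12.8 at 6 hpf against 379.8, 254 and 94.2 at 24 hpf, a difference of 3.56. The large subunit gene rpl32 had nearly the same level in the 3 cells at 6 hpf, 357, 349.9 and 349, and was at 1952, 1125 and 1137 at 24 hpf. Its relative rpl19 was at 389, 447 and 364 at 6 hpf against 1697, 1423 and 1411 at 24 hpf, a difference of 1.91. The most abundant member at 24 hpf, RPL37A, was at 787, 859.9 and 941 at 6 hpf against 2002, 2108 and 1292 at 24 hpf, and its difference of 1.06 was 0.76 with median-of-ratios scaling and 0.93 without 24_2. Among the 10 genes within 2-fold was rpl37 (ENSDARG00000076360), at 34.4, 13 and 8.83 at 6 hpf against 0, 29.5 and 0 at 24 hpf.

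**Figure D4:**
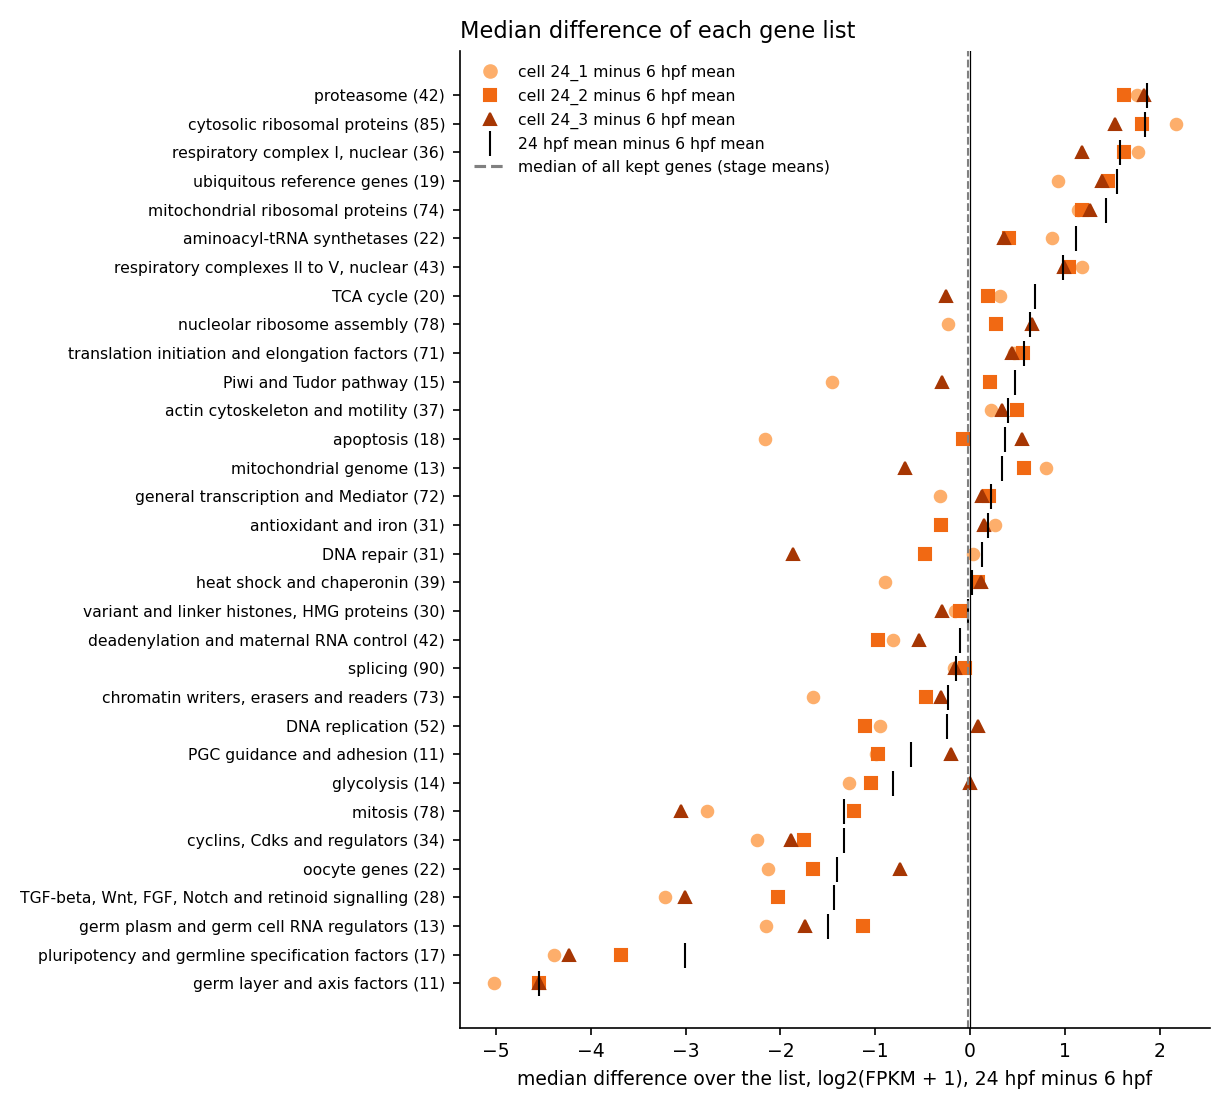
Each row is a gene list with at least 10 kept genes (number in brackets), and the horizontal axis is the median over the list of the log2(FPKM + 1) difference, 24 hpf minus 6 hpf. Black bars compare stage means, for which the dashed line is the median of all kept genes, -0.02. Orange symbols compare each cell at 24 hpf with the mean at 6 hpf. On that measure the medians of all kept genes were -0.97, -0.24 and -0.24 in 24_1, 24_2 and 24_3. The proteasome, ribosomal protein and respiratory chain lists lie above 0 in all 3 cells, and the cyclin, mitosis, germ plasm, signalling and pluripotency lists below it in all 3.

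Mitochondrial ribosomes were higher as well. Of 74 kept genes (of 75), 45 were higher and 5 lower, with no overlap for 28 and 1, and the median was 1.43. Large subunit genes were higher in 32 of 46 cases and small subunit genes in 13 of 28, with medians of 1.73 and 0.86. The share of summed FPKM was 0.901, 0.856 and 0.752% at 6 hpf against 1.91, 2.22 and 1.93% at 24 hpf. The small subunit gene mrps17 was listed at 0 at 6 hpf and was at 108, 206 and 367 at 24 hpf. Levels of mrpl44 were 170.4, 239.9 and 134 at 6 hpf against 718, 707 and 452 at 24 hpf, a difference of 1.78, and those of mrpl32 were 98.3, 85.1 and 50.9 at 6 hpf against 620.04, 788 and 203 at 24 hpf. At the low end mrps22 was at 197, 327 and 38.5 at 6 hpf against 96.5, 0 and 40.2 at 24 hpf, with overlapping ranges.

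Translation factors were less uniform than the ribosome. Of 71 kept initiation and elongation factor genes (of 86), 23 were higher and 12 lower, with a median of 0.57. Of 15 kept subunits of eIF3, the scaffold of initiation, 9 were higher and 1 lower, with a median of 1.27. Its subunit gene eif3g was at 88, 0 and 66.1 at 6 hpf against 428, 1102 and 862 at 24 hpf, a difference of 3.93. Elongation factors were mostly within 2-fold, with 1 of 9 higher. Several initiation genes were lower, among them eif4g2a, a scaffold of cap-independent initiation, at 28.4, 25.9 and 9.24 at 6 hpf against 0.0653, 0.777 and 0 at 24 hpf and eif1axb, which scans for the start codon, at 393, 171 and 116 at 6 hpf against 41.4, 25.1 and 42.9 at 24 hpf. The translational repressor gene eif4ebp1, which answers to growth signals, was at 205, 236 and 487 at 6 hpf against 741, 622 and 912 at 24 hpf, and its difference of 1.29 was 0.99 with median-of-ratios scaling. Of 22 kept aminoacyl-tRNA synthetase genes (of 37), which charge transfer RNA, 12 were higher and 4 lower, with a median of 1.12 that was 0.36 in 24_3. The lysine enzyme gene kars was at 39.6, 62.1 and 109 at 6 hpf against 111, 276 and 289 at 24 hpf, and the mitochondrial wars2 at 5.94, 0 and 0 at 6 hpf against 63.6, 111 and 100.1 at 24 hpf.

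Nucleolar genes for ribosome assembly were found in both directions. Of 78 kept genes (of 79), 28 were higher (35.9%) and 21 lower (26.9%), with a median of 0.63. Over all genes these shares were 27.3% and 30.1%. The RNA-modifying snoRNP genes dkc1 and nhp2 were lower, the former at 539, 652 and 725 at 6 hpf against 146, 81.1 and 227 at 24 hpf and the latter at 681, 308 and 479.5 at 6 hpf against 0, 79.3 and 84.3 at 24 hpf. The nucleophosmin gene npm1a was at 769, 900.3 and 843 at 6 hpf against 79.5, 35.8 and 382 at 24 hpf, a difference of -2.33 that was -3.84 without 24_3. In contrast the RNA polymerase I subunit genes polr1a and polr1b were higher, the former at 7.61, 0 and 9.07 at 6 hpf against 23.3, 14.5 and 31 at 24 hpf and the latter at 0, 21.1 and 6.64 at 6 hpf against 30.9, 37.9 and 77.8 at 24 hpf. The assembly factor gene noc4l was at 5.51, 15.2 and 7.01 at 6 hpf against 245, 105 and 93.3 at 24 hpf, a difference of 3.86, and mrto4 at 109, 118 and 196 at 6 hpf against 718, 609.8 and 348 at 24 hpf, a difference of 1.97. The entry 5_8S_rRNA, which carries ribosomal RNA rather than an mRNA, was at 463, 471 and 303 at 6 hpf against 0, 0.369 and 0 at 24 hpf.

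Nuclear genes of the respiratory chain were higher at 24 hpf. Of 36 kept complex I genes (of 39), 24 were higher and 0 lower, with no overlap for 20 and a median of 1.59. Complex I takes electrons from NADH, and its genes held 0.484, 0.595 and 0.413% of the summed FPKM at 6 hpf against 1.87, 1.66 and 1.47% at 24 hpf. Its subunit gene ndufb10 was at 60.9, 82.8 and 7.15 at 6 hpf against 1073, 638 and 697 at 24 hpf, a difference of 3.97, and ndufs3 at 119, 169 and 98.3 at 6 hpf against 957, 335 and 557 at 24 hpf, a difference of 2.25. The abundant ndufa11 was at 314, 362 and 305 at 6 hpf against 839.5, 953 and 400.5 at 24 hpf, and its difference of 1.16 was 0.85 with median-of-ratios scaling and 0.92 without 24_2. Of 43 kept genes of complexes II to V (of 52), 21 were higher and 1 lower, with a median of 0.99. The cytochrome oxidase gene cox7b was at 15.9, 146 and 83.3 at 6 hpf against 1243, 721 and 395 at 24 hpf, a difference of 3.25, and cox5aa at 368, 401 and 334 at 6 hpf against 1164, 919 and 1362 at 24 hpf, a difference of 1.64. The ATP synthase gene atp5o was at 34.5, 77.5 and 84.6 at 6 hpf against 485, 578 and 539 at 24 hpf, a difference of 3.01. The 1 lower gene was atp5ia, also listed with the genes of ATP synthase (complex V). It was at 205, 270.4 and 116 at 6 hpf against 81, 0 and 41.5 at 24 hpf, a difference of -2.24.

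The genes encoded in mitochondrial DNA did not share this pattern. All 13 were kept and all 13 were within 2-fold, with a median of 0.34 that was -0.68 in 24_3. The abundant mt-co2 was at 4659.9, 4133 and 2006 at 6 hpf against 5182, 4892 and 3573 at 24 hpf, and mt-cyb at 2643, 1989 and 1178 at 6 hpf against 1184, 2339 and 834 at 24 hpf. The sign of the list thus depended on the cell. Of 20 kept TCA cycle genes (of 27), 7 were higher and 2 lower, with a median of 0.68. In 24_3 it was -0.25, near the -0.24 of all genes in that cell. The sdhc gene, a membrane anchor of succinate dehydrogenase, was at 51.1, 52.6 and 75.6 at 6 hpf against 376, 599 and 340.01 at 24 hpf, a difference of 2.85, and aco1, a cytosolic aconitase, was listed at 0 at 6 hpf and was at 17.9, 21.2 and 7.19 at 24 hpf. The ubiquinone synthesis gene coq9 was at 53.6, 32.5 and 29.8 at 6 hpf against 355, 569.7 and 169.7 at 24 hpf, a difference of 3.21.

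Glycolytic genes had no common direction, and paralogs of 1 enzyme could differ. Of 14 kept genes (of 38), 4 were higher and 5 lower, with a median of -0.81, and 0.00 in 24_3. The gapdh gene was at 443, 389 and 398 at 6 hpf against 258, 151 and 140.4 at 24 hpf, a difference of -1.16 with no overlap, while its paralog gapdhs was listed at 0 at 6 hpf and was at 359, 124 and 104 at 24 hpf. The pyruvate kinase gene pkma was at 44.9, 35.8 and 63.6 at 6 hpf against 0, 25.5 and 0 at 24 hpf, and the lactate dehydrogenase gene ldhba at 125, 177 and 169 at 6 hpf against 0, 67.6 and 42.1 at 24 hpf. The aldolase gene aldoaa was higher, at 170.3, 239 and 235 at 6 hpf against 412, 405 and 636 at 24 hpf, and its difference of 1.17 was 0.84 with median-of-ratios scaling and 0.93 without 24_3.

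Antioxidant genes were called in either direction at shares near those of all genes, 27.3% higher and 30.1% lower. Of 31 kept genes (of 42), 10 were higher (32.3%) and 8 lower (25.8%), with a median of 0.19. The peroxiredoxin gene prdx5, which clears peroxides in mitochondria, was at 0, 0 and 4.67 at 6 hpf against 167, 122 and 187 at 24 hpf. Its gap was among the 10 widest upwards of genes with some RNA in at least 1 cell at 6 hpf. The glutathione transferase gene gstp1 was lower, at 794, 974 and 723 at 6 hpf against 0, 172 and 61 at 24 hpf, a difference of -3.4. The lipid peroxide-reducing gpx4b was at 347, 352 and 554 at 6 hpf against 1274, 663 and 921 at 24 hpf, and its difference of 1.19 was 0.89 with median-of-ratios scaling and 0.92 without 24_1. The ferritin gene fth1a, which stores iron, was at 259.8, 464 and 358 at 6 hpf against 482, 403 and 359 at 24 hpf, with overlapping ranges.

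The proteasome was higher in nearly all of its parts. Of 42 kept genes (of 49), 31 were higher and 2 lower, with no overlap for 27 and 1, and the median was 1.87. In the cells at 24 hpf the medians were 1.76, 1.63 and 1.83, and 1.52 with median-of-ratios scaling of the stage means. The alpha ring had 8 of 9 genes higher, the beta ring 7 of 8, the regulatory ATPases 7 of 7, and the other regulatory subunits 7 of 14, with medians of 1.89, 2.08, 1.93 and 1.03. The share of summed FPKM was 0.769, 0.763 and 0.826% at 6 hpf against 2.41, 2.22 and 2.2% at 24 hpf. The catalytic beta subunit gene psmb7 was at 153, 97.2 and 139 at 6 hpf against 1297, 958 and 664 at 24 hpf, a difference of 2.9. The deubiquitinase gene of the lid psmd14 was at 71.4, 109.999 and 114 at 6 hpf against 532, 869 and 918 at 24 hpf, a difference of 2.96. The activator genes psme1 and psme2, known in mammals as the PA28 complex induced by interferon, were also higher. At 6 hpf psme1 was listed at 0 and psme2 was at 0.419, 0 and 0, and at 24 hpf they were at 75.5, 133 and 41 and at 154, 11.4 and 58. The lower members were psmd7, at 148, 213 and 202 at 6 hpf against 122, 40.7 and 71.8 at 24 hpf, and psmd10, at 30.1, 154 and 242 at 6 hpf against 43.9, 93.3 and 42.1 at 24 hpf, whose differences of -1.26 and -1.24 were -0.95 without 24_2 and -0.61 without 6_3.

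**Figure D5:**
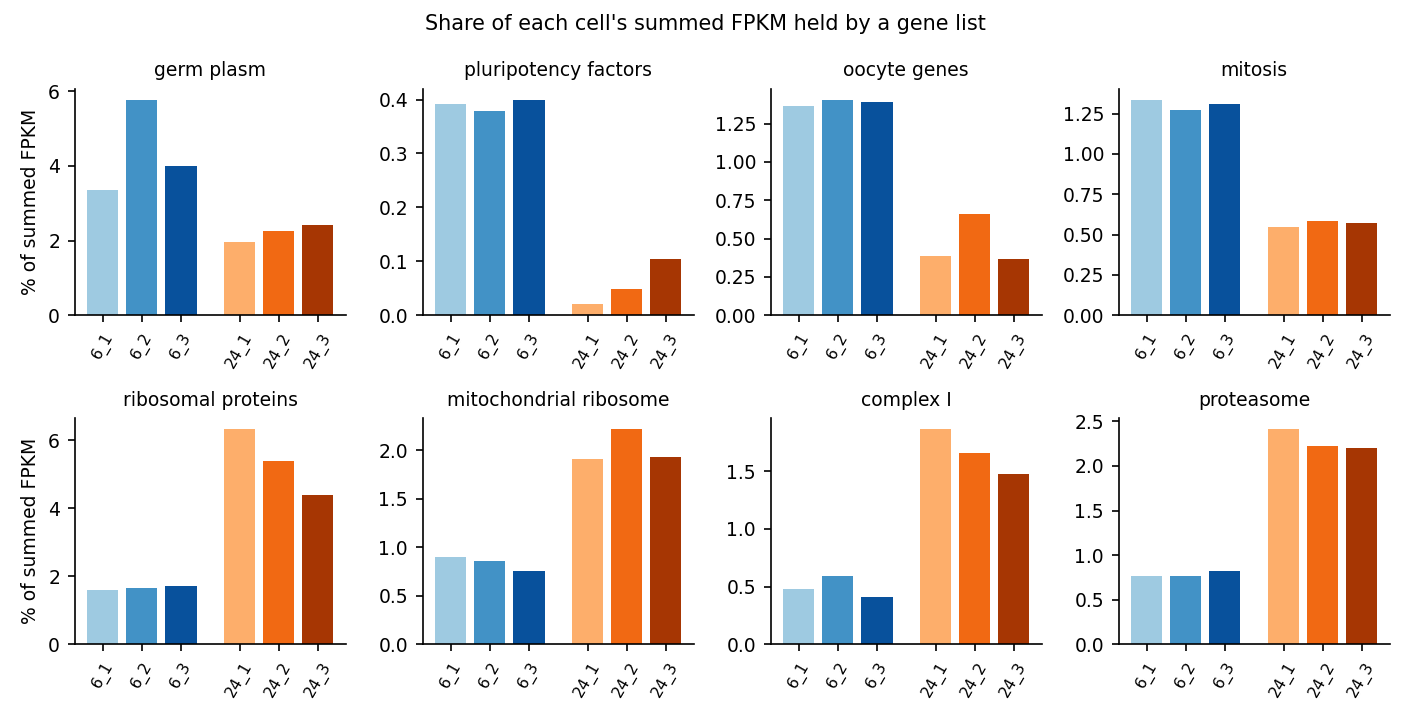
Bars give the percentage of a cell's summed FPKM held by all genes of a list, for the 3 cells at 6 hpf in blue and the 3 at 24 hpf in orange, with vertical axes that start at 0 and differ between panels. Germ plasm, pluripotency, oocyte and mitosis genes hold a smaller share in every cell at 24 hpf than in any at 6 hpf. The germ plasm and oocyte lists share the abundant genes ca15b and h1m, and nanos3 makes up a large part of the germ plasm share. Ribosomal protein, mitochondrial ribosome, complex I and proteasome genes hold a larger share in every cell at 24 hpf.

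Single chaperone genes took both directions, and of the families counted only the chaperonin ring was mostly higher. Of 39 kept genes (of 43), 14 were higher (35.9%) and 11 lower (28.2%), with a median of 0.02. Of 10 kept Hsp70 genes 2 were higher and 4 lower, with a median of -0.17. Of 7 kept Hsp40 genes 1 was higher and 2 were lower, with a median of -0.21. The inducible hsp70.3 was at 134, 266 and 268 at 6 hpf against 2.83, 4.35 and 0 at 24 hpf and hsp70.2 at 120.3, 183 and 87.3 at 6 hpf against 2.8, 13.2 and 0 at 24 hpf, and their cochaperone dnajb1b at 635, 631 and 597 at 6 hpf against 0, 34.7 and 70.09 at 24 hpf. The endoplasmic reticulum chaperone gene hspa5 was at 314, 324 and 365 at 6 hpf against 78.3, 38.8 and 45.2 at 24 hpf, a difference of -2.61. In contrast 6 of the 8 genes of the chaperonin ring, which folds actin and tubulin, were higher and 0 lower, with a median of 1.34. Of these cct4 was at 53.7, 13.7 and 134 at 6 hpf against 717, 407 and 557 at 24 hpf, a difference of 3.05, and cct7 at 73.5, 14.8 and 86.8 at 6 hpf against 177, 250.1 and 289 at 24 hpf. The mitochondrial chaperonin gene hspd1 was at 8.99, 26.2 and 22.3 at 6 hpf against 101, 112 and 80.2 at 24 hpf, a difference of 2.29. The constitutive hspa8 was at 161, 282 and 731 at 6 hpf against 697, 784 and 908 at 24 hpf, and its difference of 1.02 was 0.73 with median-of-ratios scaling and between 0.65 and 1.84 when 1 cell was left out.

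Splicing and transcription genes as groups lay near the median of all genes. Of 90 kept splicing genes (of 93), 14 were higher and 24 lower, with a median of -0.15. Of 16 kept SR protein genes, which select exons, 1 was higher and 9 were lower, with a median of -1.28, and srsf2a was at 39.7, 38.3 and 73 at 6 hpf against 0, 19 and 0 at 24 hpf. Of 16 Sm and LSm genes, 6 were higher and 1 lower. The core gene snrpd2 was at 449, 213 and 239 at 6 hpf against 1649.95, 1090.1 and 1522 at 24 hpf, a difference of 2.24, and snrpf at 96.9, 71 and 109 at 6 hpf against 523, 646 and 438 at 24 hpf, a difference of 2.52. The lower member was lsm1, which acts in RNA decapping rather than in the spliceosome, at 309, 425 and 152 at 6 hpf and listed at 0 at 24 hpf. Of 72 kept genes for general transcription and Mediator (of 88), 17 were higher and 16 lower, with a median of 0.22. The Mediator gene med17 was listed at 0 at 6 hpf and was at 144, 72.5 and 40.4 at 24 hpf. The elongation factor gene supt4h1 was at 625, 446 and 328 at 6 hpf against 37.3, 309 and 203 at 24 hpf, and its difference of -1.35 was -0.86 without 24_1.

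Most genes for cell death, meiosis and yolk did not pass the filter. Of 49 genes for apoptosis and its control, 18 were kept, with 6 higher and 5 lower. The survival gene mcl1a was at 454, 563 and 493 at 6 hpf against 552, 474 and 846 at 24 hpf, while its copy mcl1b was at 90.05, 81.6 and 21.2 at 6 hpf against 0, 0 and 0.43 at 24 hpf, and mdm2, a ubiquitin ligase gene, was at 28.8, 40.4 and 4.88 at 6 hpf and listed at 0 at 24 hpf. The executioner caspase gene casp3a was at 23.2, 7.88 and 2.94 at 6 hpf against 31.6, 40.9 and 40.02 at 24 hpf, higher without overlap. Of 22 meiosis genes 6 were kept, 1 higher and 2 lower. The higher was mei4, which acts with the machinery that cuts DNA in meiosis in mice, listed at 0 at 6 hpf but at 6.44, 45.2 and 27.9 at 24 hpf. The synaptonemal complex genes sycp1 and sycp2l were lower, the former at 5.37, 12.4 and 4.62 at 6 hpf against 0, 2.87 and 2.33 at 24 hpf and the latter at 5.62, 48.8 and 16.2 at 6 hpf and listed at 0 at 24 hpf. Of the lipoprotein and yolk-related genes 6 of 34 were kept. In 24_2, 16 of the 34 reached an FPKM of 10, against 5 or 6 in each other cell, and the list summed to 2414 there. The lipid carrier gene apoeb was at 313, 299.9 and 387 at 6 hpf against 0.14, 89.1 and 0 at 24 hpf. The cathepsin gene ctsba was at 249, 321 and 273 at 6 hpf against 53.9, 43.3 and 144 at 24 hpf.

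The genes with the widest gap between stages were mostly of other roles. Upwards, with some RNA in at least 1 cell at 6 hpf, the widest were pigf at 0, 0 and 0.409 at 6 hpf against 92.7, 119 and 189 at 24 hpf and dpp7 at 0, 0 and 0.199 at 6 hpf against 142, 31.3 and 82 at 24 hpf. The former acts in making membrane anchors of glycolipid and the latter is a lysosomal peptidase. They were followed by ola1, an ATPase, at 2.67, 0 and 0.533 at 6 hpf against 227, 94.2 and 86.6 at 24 hpf, and by stat1a, a transcription factor of interferon signalling, at 0.0904, 0 and 0 at 6 hpf against 27.8, 23.2 and 22.8 at 24 hpf. The other genes with the widest gaps upwards were prdx5, mif, spata2, gemin7, degs1 and irak1bp1. Among genes listed at 0 in every cell at 6 hpf the widest gaps were those of map1lc3a, an autophagy protein, at 259.8, 145 and 129 at 24 hpf, and qdprb1, which recycles a pterin cofactor, at 121, 268 and 122. Also in that group were fosab at 249, 114 and 729.8, mrps17, gapdhs and an unannotated gene. The gene fosab encodes the immediate early factor Fos, and all 3 cells at 24 hpf held it.

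Downwards, with some RNA in at least 1 cell at 24 hpf, the widest gap was that of shisa2a, whose family restrains Wnt and FGF receptors in the frog. Its FPKM was 382, 478 and 486 at 6 hpf against 0, 0 and 0.408 at 24 hpf. Next were 5_8S_rRNA and vgll4l, a cofactor of TEAD proteins, at 282, 197 and 137 at 6 hpf against 0, 0.14 and 0 at 24 hpf. The zinc finger gene znf395a was at 149.8, 186 and 183 at 6 hpf against 0, 1.07 and 0 at 24 hpf. They were followed by kifc1, cenpl, sall4, tdgf1 and 2 genes known only by clone names. Among genes listed at 0 at 24 hpf the widest gaps, after vox, were those of nnr at 708, 1079 and 569 at 6 hpf and thy1, a surface glycoprotein, at 434, 482 and 391. The other 3 were ccna1, fam212aa at 369, 948 and 864, and btg4.

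Reference genes were not level between the stages. Of 19 kept genes commonly used as references (of 21), 13 were at least 2-fold higher at 24 hpf and 1 lower. The median was 1.55, and 1.25 with median-of-ratios scaling. The list shares actb1 and actb2 with the actin genes, gapdh and gapdhs with glycolysis and hspa8 with chaperones, so these lists are not separate. Tubulin (tubb2b) was at 352, 539 and 738 at 6 hpf against 1822, 1632 and 1313 at 24 hpf, a difference of 1.55. The cyclophilin gene ppiab was at 83.4, 0 and 74 at 6 hpf against 479.5, 382 and 246 at 24 hpf, and rplp0, a ribosomal stalk protein, at 66.3, 6.77 and 0.509 at 6 hpf against 129, 361 and 193 at 24 hpf. The gene tbp, the TATA-binding protein, was at 55.4, 26.8 and 78.3 at 6 hpf against 51.1, 51.5 and 24.8 at 24 hpf, with overlapping ranges and a difference of -0.33. A ratio of any gene to actb1 or to rplp0 is thus lower at 24 hpf than the same comparison of FPKM, and a ratio to gapdh is higher.

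Cells at 24 hpf varied more among themselves than those at 6 hpf. The median SD of log2(FPKM + 1) over 3 cells was 1.06 at 6 hpf and 1.56 at 24 hpf, and it was larger at 24 hpf for 4593 genes (60.8%). Over the 2129 genes with an FPKM of at least 1 in all 6 cells the medians were 0.62 and 0.69, so much of the larger spread lay in genes that some cells lacked. The Pearson coefficient between log2(FPKM + 1) of cells, across the 7549 genes, averaged 0.575 (0.560 to 0.600) over the 3 pairs within 6 hpf and 0.520 (0.496 to 0.534) over those within 24 hpf. Over the 9 pairs between stages it averaged 0.310 (0.268 to 0.337). Genes are not independent replicates, and these coefficients describe 6 cells of 2 embryos. Of the 2058 genes that were at least 2-fold higher at 24 hpf, 112 had over 90% of the summed FPKM of that stage in 1 cell, and 33 of the 2269 lower genes had over 90% of that of 6 hpf in 1 cell.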

How the data were processed

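Single PGCs were lysed and their RNA was amplified by Smart-seq2, which copies whole transcripts, with Nextera XT libraries. According to the submitters' processing notes, reads were trimmed with Trimmomatic, mapped with HISAT2 2.0.5 to danRer10 (GRCz10) and quantified with StringTie 1.3.3. The authors deposited FPKM values per gene and cell, without read counts, and no per-sample column was left out except those of the 3 libraries of 11 hpf, which served only for the counts of the other stage pairs. DESeq is also named in the notes, and its results were not used here. Low FPKM values showed no common step between cells, so relative depth could not be recovered.

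Calculations used Python 3.11.15, pandas 2.3.3 and numpy 2.4.6, and plots were drawn with matplotlib 3.10.9. Levels were compared as log2(FPKM + 1), a pseudocount of 1, which understates differences of scarce genes. Genes were called by a 2-fold difference of stage means or by cells that do not overlap. With 1 embryo per stage no p-value, standard error or test of a list was computed. The calculations were tested on simulated data. The members and the 35 gene lists and 13 marker lists were chosen with earlier results of these data known. Named genes are, per direction, the 10 widest gaps among genes above 0 in at least 1 cell of the lower stage. To these were added, per direction, the 6 widest among genes listed at 0 at the other stage, and the 10 most abundant per stage. From each list came the 4 most abundant and the 2 largest differences per direction, besides genes the study names. The gap runs from the lowest cell of the higher stage to the highest cell of the lower stage. Other list members, the subgroups of lists (such as the subunits of a complex) and the immediate early genes were chosen after their values were seen. Alternatives were pseudocounts of 0.1 and 10, no filter, an FPKM minimum of 5, at least 2 cells of either stage, a common total per cell, median-of-ratios factors, means of log values, rank correlation, the 24 hpf cell 24_3 alone, and leaving out each cell. Some named genes are not reported here. A search of promoter motifs was not run, because no promoter sequence was at hand here.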

Additional observations from a re-analysis of the deposited data

How the results depend on the processing

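No difference was tested, so these values show only how far the description depends on the settings. Without a filter, 4818 genes were at least 2-fold higher and 4778 lower at 24 hpf, and with a pseudocount of 10 the lower genes numbered 1498. Means of log values moved the median of all genes to -0.43 and the split to 1999 higher and 3066 lower. Leaving out 1 cell gave between 1135 and 1488 genes higher without overlap and between 1566 and 1795 lower, where fewer cells make overlap rarer by construction, and a median of all genes between -0.16 and 0.04. With 24_3 as the only cell of 24 hpf, 2587 genes were higher and 2324 lower without overlap, for the same reason. By rank correlation the coefficients were 0.620 within 6 hpf and 0.342 between stages. Over genes with an FPKM of at least 1 in all 6 cells they were 0.757 within 6 hpf, 0.731 within 24 hpf and 0.574 between stages, and the median SD was 0.62 at 6 hpf and 0.69 at 24 hpf.

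Of 544 list medians under alternatives, 503 moved by less than the spread between the medians of single cells and 41 by more, and 0 medians beyond 2-fold changed sign. Counting all 34 lists with more than 1 kept gene, up to 7 medians took the opposite sign under 1 setting, both without a filter and without 24_2, and 6 did so in 24_3 alone and on means of log values. Under the settings of the report all of these medians were within 2-fold, and the widest turn was that of the lipoprotein and yolk-related list, from -0.47 to 2.14 without a filter. Of 5261 values of named genes, 4951 stayed within the spread between cells, 301 moved and 9 values beyond 2-fold changed sign. In 24_3 alone the differences were -3.65 for pld6, -1.08 for tfdp1b, -1.27 for IDH2, -0.74 for hsph1 and -3.58 for prdx4. With 1 cell left out they ran from -0.17 (without 24_3) to 1.78 for sox19a, from -0.14 (without 24_3) to 4.34 for smad1, from -4.29 to 1.79 (without 6_2) for mrps35 and from -0.29 (without 24_1) to 6.94 for HSPB11. The cause was not tested. No paired analysis was possible because no result comes from a test, and cells of different embryos share only a number. The number of fragments per gene is unknown from FPKM, so a level listed at 0 gives no upper limit.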

Other observations

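Immediate early genes, which cells switch on within minutes of a stimulus or of handling, were looked at because fosab was among the widest gaps, and this list was therefore chosen after values were seen. Of 31 genes 12 were kept, 3 of them at least 2-fold higher at 24 hpf and 4 lower, so the list as a whole did not follow fosab. At 24 hpf fosab was at 249, 114 and 729.8. The FPKM of dusp1, a phosphatase that ends kinase signalling, was 159.5, 226 and 158 at 6 hpf against 148, 23.5 and 0 at 24 hpf, and that of atf3, a stress factor, was 59.2, 67.8 and 27 at 6 hpf against 0, 0 and 51.5 at 24 hpf. The jun genes were uneven, with jun at 0, 19.7 and 5.15 at 6 hpf against 37.2, 0 and 19.8 at 24 hpf, while junbb, listed at 0 in every cell of 6 hpf, was at 0, 58.7 and 82.3 at 24 hpf. The growth arrest gene btg2 was at 57.8, 168 and 37.5 at 6 hpf against 0, 43.3 and 9.16 at 24 hpf, and egr1 was listed at 0 in all 6 cells.

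Some markers of other tissues were found in all 3 cells at 24 hpf and others in part of them. The fatty acid-binding gene fabp7a, a marker of neural progenitors, was listed at 0 at 6 hpf and was at 108, 144 and 60.9 at 24 hpf, where 24_3 had few muscle markers. The fast muscle light chain gene mylz3 was at 28.9, 159.8 and 39.7, and mylpfa, from the same sarcomere, at 162, 251 and 0, in too few cells to pass the filter. Of the keratin genes among the epidermal markers, krt4, which did not pass the filter either, was at 10.6, 0 and 0 at 6 hpf against 187, 0 and 0 at 24 hpf, and krt18, which did, was at 0, 21.2 and 0 at 6 hpf against 0, 74.1 and 99.6 at 24 hpf. Thus 24_3 held mylz3 without mylpfa, and the cells at 24 hpf differed in which of these keratin genes they held.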
